A study of Homo sapiens with 4 samples.

Results

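The SOX transcription factors described here are 10 genes of neural, neural crest and glial lineages, namely SOX2, SOX4, SOX5, SOX6, SOX8, SOX9, SOX10, SOX11, SOX12 and SOX13. They were taken by symbol from a table of 64252 gene rows, and each of the 10 matched 1 row. The libraries came from SK-N-BE(2), an established human neuroblastoma cell line with amplified MYCN, carrying either a scramble short hairpin RNA (shRNA) or an shRNA against IRF2BP2, a transcriptional co-regulator. There were 2 libraries per group and 4 in all, with 30847699 to 34684651 counts each. The labels do not say how many hairpin sequences or separate cultures stood behind a group, so the p-values reflect no more than library-to-library spread, and that spread may be technical. Control columns are headed NC in the table, an abbreviation without a key in the labels, and were read here as the scramble shRNA.

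SOX proteins bind the minor groove of DNA through a high mobility group (HMG) box and bend it, and they act on a target mostly together with partner factors. The family is divided into subgroups by the HMG box. SOX2, of subgroup B1, maintains neural progenitors. SOX4, SOX11 and SOX12, of subgroup C, act in newly formed neurons and in the sympathetic nervous system, from whose precursors neuroblastoma arises. SOX5, SOX6 and SOX13, of subgroup D, have no activation domain of their own and modulate other factors. SOX8, SOX9 and SOX10, of subgroup E, act in neural crest, glia and cartilage.

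The HMG box is what the 10 genes share, and the start of its coding sequence is printed because reads from so similar a stretch are the ones a counter could assign to the wrong gene. Each line gives 60 bases, 5′ to 3′ on the coding strand, from the first codon of the conserved motif at the start of the box. Sequences come from GENCODE release 29 transcripts and coordinates are on GRCh38. Capitals mark the 28 bases that are identical in all 10 genes.
SOX2 (subgroup B1, chr3:181712487-181712546, + strand): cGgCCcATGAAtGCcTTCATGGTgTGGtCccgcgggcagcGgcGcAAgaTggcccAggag
SOX4 (subgroup C, chr6:21594715-21594774, + strand): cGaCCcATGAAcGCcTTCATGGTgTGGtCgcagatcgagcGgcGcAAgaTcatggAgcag
SOX11 (subgroup C, chr2:5692872-5692931, + strand): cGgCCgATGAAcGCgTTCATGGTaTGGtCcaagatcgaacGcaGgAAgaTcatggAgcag
SOX12 (subgroup C, chr20:326048-326107, + strand): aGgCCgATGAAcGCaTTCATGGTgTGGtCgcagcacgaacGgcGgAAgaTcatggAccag
SOX5 (subgroup D, chr12:23543251-23543310, - strand): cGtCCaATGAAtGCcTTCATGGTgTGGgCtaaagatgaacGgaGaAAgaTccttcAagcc
SOX6 (subgroup D, chr11:15989037-15989096, - strand): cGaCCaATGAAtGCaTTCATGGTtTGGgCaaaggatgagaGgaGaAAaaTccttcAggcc
SOX13 (subgroup D, chr1:204123705-204123764, + strand): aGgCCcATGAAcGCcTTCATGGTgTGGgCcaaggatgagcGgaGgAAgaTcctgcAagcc
SOX8 (subgroup E, chr16:982232-982291, + strand): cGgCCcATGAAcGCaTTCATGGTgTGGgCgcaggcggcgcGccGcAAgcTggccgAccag
SOX9 (subgroup E, chr17:72121710-72121769, + strand): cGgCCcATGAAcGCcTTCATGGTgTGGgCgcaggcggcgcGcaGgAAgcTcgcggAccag
SOX10 (subgroup E, chr22:37983410-37983469, - strand): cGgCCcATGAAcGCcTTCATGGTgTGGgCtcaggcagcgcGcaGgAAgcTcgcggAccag

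Within the 60 bases printed, the capitals cluster toward the start, and the lower case bases further on follow the subgroups. The rest of the box was not marked in this way. Over 210 coding bases of the box, the 9 pairs within a subgroup were 79.5% to 91.4% identical, and the 36 pairs between subgroups 55.2% to 76.2%. SOX4 and SOX11 were identical at 88.6% of these bases. Runs of identical bases were compared between the longest transcript of each gene, over its whole length. The longest such run of any gene pair was 45, for SOX9 and SOX10. It was 27 for SOX4 and SOX11, 33 for SOX4 and SOX12 and 35 for SOX11 and SOX12.

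**Figure D1:**
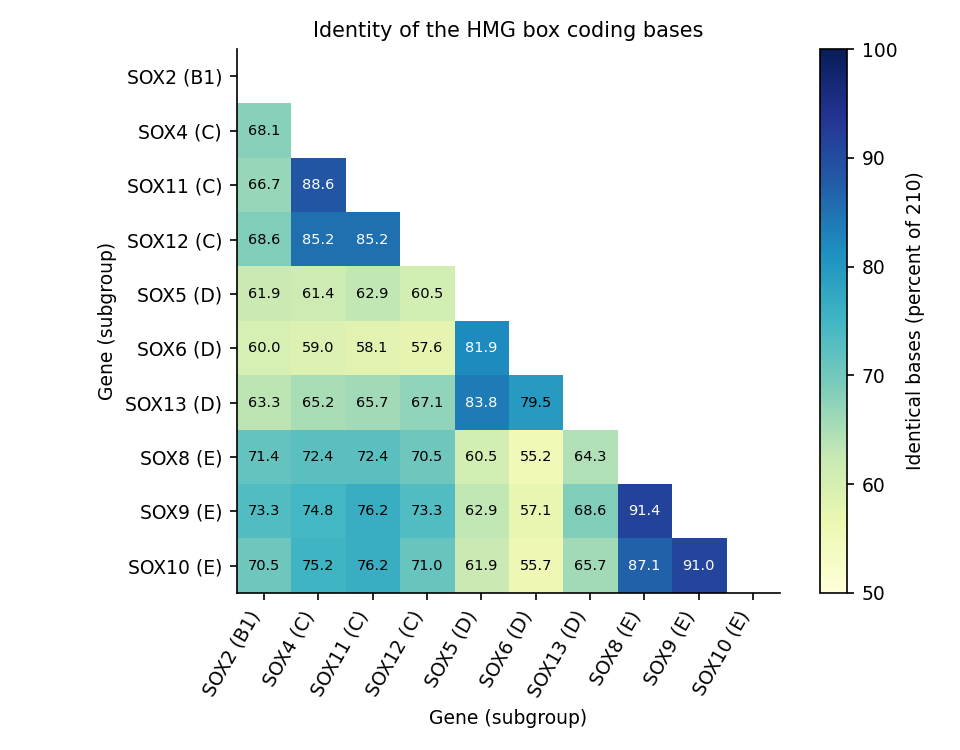
Identity of the HMG box coding sequence between each pair of the 10 SOX genes, as the percent of 210 bases that are identical, with the subgroup in parentheses on both axes. Pairs of subgroup C lie between 85.2% and 88.6%, and the pair SOX8 and SOX9 is highest at 91.4%.

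The knockdown was visible in the targeted gene. IRF2BP2 stood at 243 and 238 CPM (counts scaled to a fixed library total, with TMM factors) in the scramble libraries and at 89.6 and 87.5 CPM in the IRF2BP2 shRNA libraries. All 13 markers of adrenergic neuroblastoma cells were detected and 11 of them fell, beside 21.4% of all 19093 genes tested, while GATA2 rose (log2 fold change 0.17, edgeR adjusted p = 0.00581). They had a summed level of 3450 and 3730 CPM with scramble and 2080 and 2110 CPM with the IRF2BP2 shRNA. The 7 fibroblast markers went both ways and summed to 348 and 332 CPM with scramble and 283 in each IRF2BP2 shRNA library. COL1A1 rose by 2.17 and COL3A1 by 1.49 on the log2 scale, LUM, DCN, PDGFRA and PDGFRB fell, and COL1A2, not tested, had 0 counts in both IRF2BP2 shRNA libraries. The 5 endothelial markers summed to 0.874 to 1.46 CPM over the libraries with PECAM1 at 0, the 5 immune markers to 4.18 to 7.61 CPM with CD3E and MS4A1 at 0, and the 5 epithelial markers to 2.5 to 4.39 CPM with KRT5 at 0. Mitochondrially encoded genes held 7.27% and 7.10% of counts with scramble and 6.42% in each IRF2BP2 shRNA library. The part of these differences in the SOX results was not tested, and in bulk RNA fewer cells of a type cannot be told apart from less RNA per cell.

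The SOX genes shifted in both directions and by small amounts. With the IRF2BP2 shRNA, SOX4, SOX5 and SOX9 rose and SOX11 and SOX12 fell, while SOX2, SOX6 and SOX13 did not pass the test. SOX8 and SOX10 had too few counts to be tested. Of 10 genes, 8 passed the filter on low counts and 5 of these were called (edgeR quasi-likelihood test, adjusted p under 0.05), 3 higher and 2 lower, where 42.0% of all 19093 genes tested were called, 20.6% higher and 21.4% lower. The 2 groups of libraries did not overlap in CPM for these same 5 of the 8, beside 70.4% of all genes tested. Among genes with a mean of at least 10 CPM, 4 of 5 SOX genes were called, beside 59.1% of all such genes. The median log2 fold change of the 8 tested SOX genes was 0.09, and that of all genes tested was -0.01. Tested against a change of 1.5-fold, 0 of the 8 passed at an adjusted p under 0.05 (edgeR) and 0 at an unadjusted p under 0.05, while 8.48% of all genes passed.

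Within subgroup C, SOX4 moved against SOX11 and SOX12. SOX4 (ENSG00000124766, chr6:21592768-21598619, + strand), which promotes neuronal gene expression and is also active in many tumours, stood at 278 and 318 CPM with scramble and at 374 and 369 CPM with the IRF2BP2 shRNA. Both IRF2BP2 shRNA libraries lay above both scramble libraries (298 ± 28.2 against 371 ± 3.35 CPM, mean and SD, n = 2 each), and the scramble libraries differed more from each other than the IRF2BP2 shRNA libraries did. SOX4 rose by 24.4% (log2 fold change 0.32, standard error 0.06, edgeR adjusted p = 0.0028). The antisense gene AL512380.2 shares 168 bases, 2.87%, of its exons.

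SOX11 (ENSG00000176887, chr2:5692667-5701385, + strand), a factor of immature neurons that is highly expressed in neuroblastoma, had 403 and 426 CPM with scramble and 311 and 321 CPM with the IRF2BP2 shRNA. The groups did not overlap, with both IRF2BP2 shRNA libraries low (415 ± 16.5 against 316 ± 6.75 CPM). SOX11 fell by 0.39 on the log2 scale (standard error 0.04, edgeR adjusted p = 1.78e-05), the smallest p among the SOX genes.

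SOX12 (ENSG00000177732, chr20:325595-330224, + strand), the third gene of subgroup C, had 110 and 113 CPM with scramble and 93.5 and 96.0 CPM with the IRF2BP2 shRNA. It fell by 0.24 on the log2 scale (standard error 0.04, edgeR adjusted p = 0.000685), again without overlap of the groups. In all 11 alternative settings SOX4, SOX11 and SOX12 kept their direction and their call, with log2 fold changes between 0.23 and 0.42, -0.44 and -0.35, and -0.28 and -0.21.

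Per exon length, SOX4 mRNA stood above SOX11 mRNA in every library, and by more with the IRF2BP2 shRNA. The ratio of SOX4 to SOX11, each divided by its exon length (5852 bases for SOX4 and 8719 for SOX11), was 1.03 and 1.11 with scramble and 1.79 and 1.71 with the IRF2BP2 shRNA. By counts alone the log2 ratio was -0.53 and -0.42 with scramble and 0.26 and 0.20 with the IRF2BP2 shRNA. The order of the genes with scramble thus rests on the annotated exon lengths.

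SOX2 (ENSG00000181449, chr3:181711924-181714436, + strand), which keeps neural progenitors undifferentiated, had 14.5 and 16.9 CPM with scramble and 14.1 and 14.5 CPM with the IRF2BP2 shRNA, so that the groups overlapped. Its log2 fold change was -0.13, with a 95% interval from -0.39 to 0.12 (edgeR adjusted p = 0.391). SOX2 lies within the long noncoding RNA gene SOX2-OT on the same strand and shares no exon bases with it.

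Of subgroup E, SOX9 alone was well detected. SOX9 (ENSG00000125398, chr17:72121020-72126420, + strand), which specifies cartilage and acts in neural crest and glial precursors, had 15.8 and 18.8 CPM with scramble and 24.2 and 25.0 CPM with the IRF2BP2 shRNA. Both IRF2BP2 shRNA libraries lay above both scramble libraries. SOX9 rose by 42.2% (log2 fold change 0.51, standard error 0.10, edgeR adjusted p = 0.00171), and the log2 fold change lay between 0.40 and 0.64 in 11 alternative settings, in each of which it was called.

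The other genes of subgroup E were at or near the limit of detection. SOX10 (ENSG00000100146, chr22:37970686-37987422, - strand), the factor that defines Schwann cells and melanocytes, had 0 counts in both scramble libraries, 1 count in IRF2BP2 shRNA replicate 1 and 0 in replicate 2, where a count of 0 allows a level of up to 0.0865 to 0.0973 CPM (3 counts per library, counting error only). Its exons overlap those of POLR2F on the opposite strand by 89 bases, and POLR2F had 42.1 and 51.8 CPM with scramble and 62.9 and 64.6 CPM with the IRF2BP2 shRNA. SOX8 (ENSG00000005513, chr16:981808-986979, + strand), a close relative of SOX9 with roles in glia, had 0 and 4 counts with scramble and 23 and 7 with the IRF2BP2 shRNA. The SOX8 counts did not overlap between groups, but they did not pass the filter, and with no filter the log2 fold change of 2.86 was not called (edgeR adjusted p = 0.106). With 1 library left out, SOX8 passed the filter in 3 cases, through the group in which it is high, and the value depended on the library. The log2 fold change was 1.83 without scramble replicate 1 (edgeR adjusted p = 0.225), 3.46 without IRF2BP2 shRNA replicate 2 (edgeR adjusted p = 0.0337) and 6.96 without scramble replicate 2 (edgeR adjusted p = 0.0216), where the only scramble library left had 0 counts and the fitted value is no measure of size.

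Subgroup D was low throughout. SOX5 (ENSG00000134532, chr12:23529500-24562544, - strand), which in neurons helps to specify subtypes and in cartilage works with SOX9, had 2.48 and 2.31 CPM with scramble and 3.81 and 3.68 CPM with the IRF2BP2 shRNA, with no overlap of the groups. SOX5 rose by 56.5% (log2 fold change 0.65, standard error 0.22, edgeR adjusted p = 0.0386). This call was near the threshold and was lost in 8 of 10 alternative settings, with adjusted p between 0.0354 and 0.15 over the 10, although the log2 fold change stayed between 0.60 and 0.71. Among these, leaving out any 1 of the 4 libraries gave an edgeR adjusted p of 0.0655 (scramble replicate 1), 0.113 (scramble replicate 2), 0.15 (IRF2BP2 shRNA replicate 1) or 0.113 (IRF2BP2 shRNA replicate 2).

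SOX6 (ENSG00000110693, chr11:15966449-16739591, - strand), the partner of SOX5 in cartilage and neural precursors, had 20 and 7 counts with scramble and 23 and 13 with the IRF2BP2 shRNA. The groups overlapped, and its log2 fold change of 0.46 had a 95% interval from -0.81 to 1.73 (edgeR adjusted p = 0.566). The sign did not hold without scramble replicate 2. SOX6 shares 219 exon bases with C11orf58, a far more abundant gene on the opposite strand with a mean count of 5193 against 15.75 for SOX6, and without strand information the reads of this stretch cannot be told apart. SOX13 (ENSG00000143842, chr1:204073115-204127743, + strand), a subgroup D gene known as a modulator of WNT signalling, had 26 and 23 counts with scramble and 12 and 31 with the IRF2BP2 shRNA. The IRF2BP2 shRNA libraries lay on either side of the scramble libraries (log2 fold change -0.16, 95% interval from -1.24 to 0.93, edgeR adjusted p = 0.831), and the sign turned without IRF2BP2 shRNA replicate 1.

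**Figure D2:**
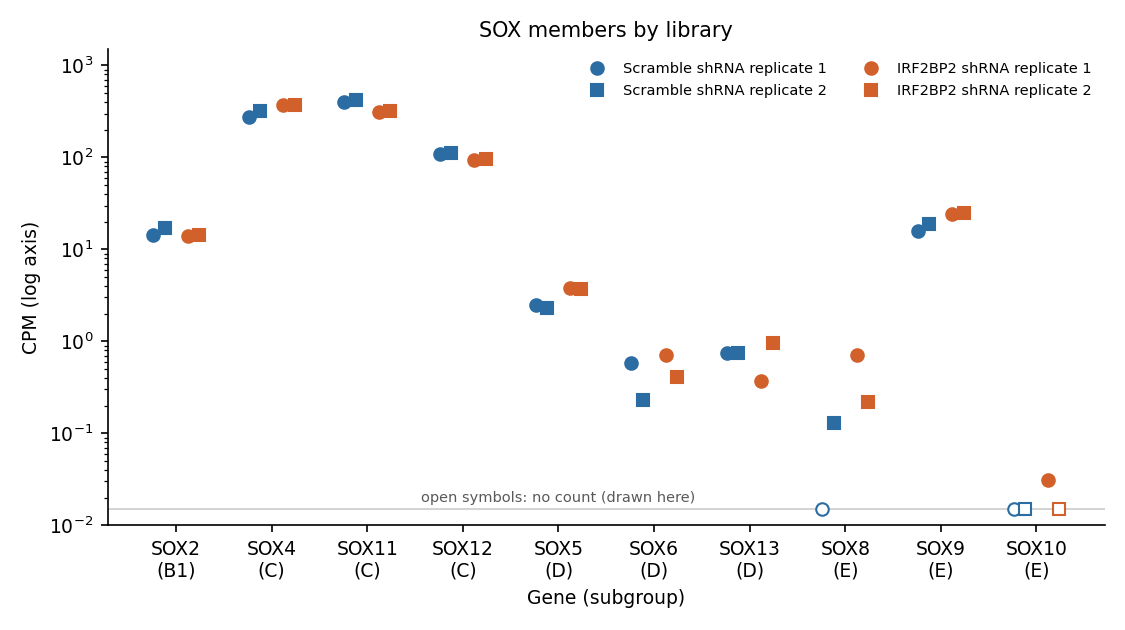
Level of each SOX gene in each library in CPM on a log axis, with scramble shRNA in blue, IRF2BP2 shRNA in orange, circles for replicate 1 and squares for replicate 2. Open symbols mark libraries with no count. SOX4, SOX11 and SOX12 lie between 93.5 and 426 CPM, SOX2 and SOX9 between 14.1 and 25.0 CPM, and the other 5 genes below 4 CPM.

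Per exon length the family was dominated by subgroup C. In TPM, which divides counts by exon length and scales each library to a fixed total, SOX4 had 156 and 175, SOX11 151 and 157, and SOX12 78.1 and 78.3 in the scramble libraries. SOX4 was above SOX11 within each of these libraries, although the ranges of the genes overlapped between libraries, and SOX12 lay below both. In the IRF2BP2 shRNA libraries SOX4 had 213 and 209 TPM and SOX11 119 and 122 TPM, with no overlap, and SOX12 had 67.5 and 68.8 TPM.

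The next pair by level changed order. SOX2 had 18.8 and 21.6 TPM with scramble, above SOX9 with 13.2 and 15.4 TPM. With the IRF2BP2 shRNA, SOX9 had 20.6 and 21.1 TPM and SOX2 18.8 and 19.1 TPM. SOX5 followed with 0.711 to 1.22 TPM over the 4 libraries, and SOX6, SOX8, SOX10 and SOX13 stayed at or under 0.542 TPM. Among 56591 genes ranked by TPM, SOX4 stood at ranks 769 and 676 with scramble and 556 and 583 with the IRF2BP2 shRNA, and SOX11 at 803 and 769, then 1233 and 1192.

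Summed over the 10 genes, SOX transcripts came to 419 and 448 TPM with scramble and 441 and 442 TPM with the IRF2BP2 shRNA, so the sums overlapped. Subgroup C held 92.1% and 91.5% of this sum with scramble and 90.6% and 90.5% with the IRF2BP2 shRNA. SOX4 made up 37.2% and 39.0% of the sum with scramble and 48.3% and 47.3% with the IRF2BP2 shRNA, a difference of 9.71 percentage points. SOX11 made up 36.2% and 35%, then 27.0% and 27.6%, a difference of -8.31 points, and SOX12 18.7% and 17.5%, then 15.3% and 15.6%, a difference of -2.63 points. SOX9 went from 3.15% and 3.43% to 4.66% and 4.77%. For SOX4, SOX11, SOX12 and SOX9 the groups did not overlap, and the exact two-sided permutation p was 0.333, the smallest that 2 against 2 libraries can give. Shares of 1 sum are not independent of each other.

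**Figure D3:**
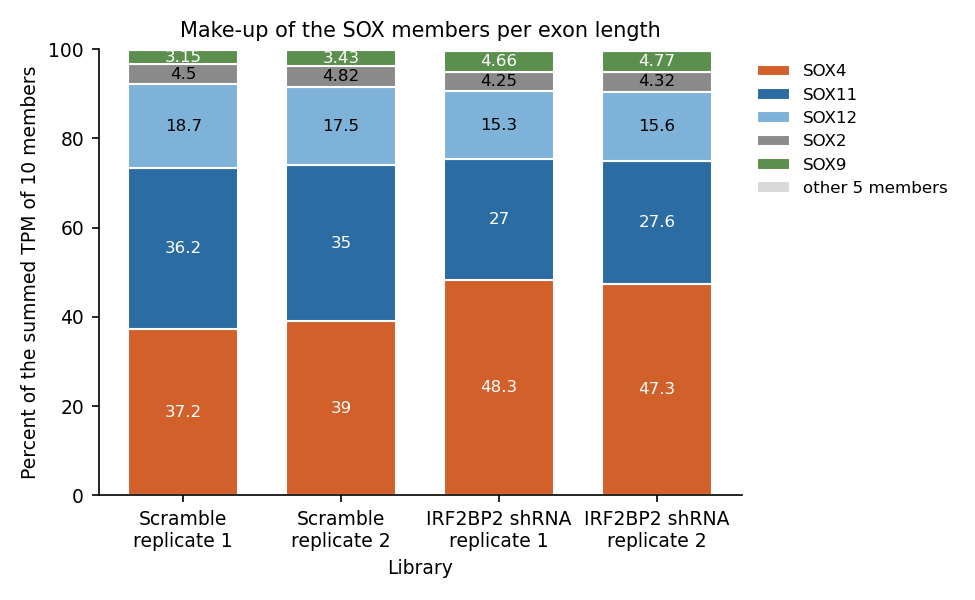
Share of each SOX gene in the summed TPM of the 10 genes, as stacked bars that each stand for 1 library. The SOX4 segment is 37.2% and 39.0% in the scramble libraries and 48.3% and 47.3% in the IRF2BP2 shRNA libraries, and the segments of SOX11 and SOX12 are smaller with the IRF2BP2 shRNA.

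Upstream sequence was at hand for 6 of the 10 genes in a RefSeq promoter table on GRCh38.p14 (SOX2, SOX4, SOX5, SOX6, SOX12 and SOX13). The windows listed for SOX4 and SOX6 lie wholly inside these genes as annotated in GENCODE release 29. A gene that fell, SOX12, and a gene that rose, SOX5, are shown as an example of each direction. The SOX5 call was lost in 8 of 10 alternative settings. The sequences shown cover the bases before the start that lie outside the gene in GENCODE release 29. They are written 5′ to 3′ on the strand of the gene, and capitals mark matches on either strand to GGGCGG (the GC box), CCAAT (the CCAAT box) and ACAAT (the core of the site that SOX proteins bind), none of which overlap here.
SOX12 (chr20:325302-325551, + strand): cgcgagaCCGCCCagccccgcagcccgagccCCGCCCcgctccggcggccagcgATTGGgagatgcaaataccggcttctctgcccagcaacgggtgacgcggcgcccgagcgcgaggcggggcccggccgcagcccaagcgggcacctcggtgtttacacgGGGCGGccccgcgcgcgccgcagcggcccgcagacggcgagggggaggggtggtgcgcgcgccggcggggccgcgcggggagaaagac
SOX5 (chr12:24562545-24562741, - strand): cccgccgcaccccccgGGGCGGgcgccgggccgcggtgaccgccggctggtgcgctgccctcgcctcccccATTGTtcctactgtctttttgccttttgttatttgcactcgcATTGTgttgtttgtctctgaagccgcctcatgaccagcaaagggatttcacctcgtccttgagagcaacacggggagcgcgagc

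SOX12 had 3 GC boxes, 1 CCAAT box and no ACAAT in the 250 bases before its start, of which 79.2% were G or C, where the median over 35116 promoters was 58%. SOX5 had 1 GC box, 2 ACAAT matches and no CCAAT, with 65.6% G or C. Over all promoters in the table, 42.6% held a GC box, 32% a CCAAT box and 24.6% an ACAAT in a window of this length. CACGTG, the E-box that MYC and MYCN bind, was in no listed window of these 6 genes and in 6.34% of all promoters. These are matches of letters only and say nothing of binding.

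The 9 other SOX genes listed were low or absent. SOX3, SOX14, SOX17, SOX21 and SOX30 had 0 counts in all libraries, and SOX1 had 4 counts in scramble replicate 1 and 0 elsewhere. SOX18, which acts in blood and lymph vessel development, had 0.605 and 1.46 CPM with scramble and 3.09 and 2.72 CPM with the IRF2BP2 shRNA. It rose by 183% (standard error 0.38 on the log2 scale, edgeR adjusted p = 0.00887) and was called in 10 of 10 alternative settings in which it was tested. Its size rested on the scramble libraries, with a log2 fold change of 1.0 without scramble replicate 1 and 2.26 without scramble replicate 2. SOX15 had 0.489 and 0.651 CPM with scramble and 1.78 and 0.905 CPM with the IRF2BP2 shRNA, and it was called higher (log2 fold change 1.24, edgeR adjusted p = 0.0416).

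The SOX15 call held in 3 of 10 alternative settings and was lost without scramble replicate 1 (edgeR adjusted p = 0.134), scramble replicate 2 (edgeR adjusted p = 0.0579) or IRF2BP2 shRNA replicate 1 (edgeR adjusted p = 0.409). SOX15 overlaps the more abundant MPDU1 on the opposite strand by 15 exon bases, and MPDU1 had 28.4 and 31.2 CPM with scramble and 42.4 and 44.6 CPM with the IRF2BP2 shRNA. SOX7, an endodermal and vascular SOX gene, had 1.64 and 2.44 CPM with scramble and 1.41 and 2.22 CPM with the IRF2BP2 shRNA and was not called (log2 fold change -0.17, edgeR adjusted p = 0.726), with the opposite sign without scramble replicate 2 (0.14) or IRF2BP2 shRNA replicate 1 (0.13). It shares 1268 of its exon bases with PINX1 on the same strand.

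Noncoding RNAs from SOX loci did not pass the test. Of 7 listed, 4 were tested and 0 were called (edgeR quasi-likelihood), with 1 lower at an unadjusted p under 0.05 and 0 called by DESeq2 or limma voom. CASC15, a long noncoding RNA next to SOX4 in a region linked to neuroblastoma risk, had 30.9 and 32.2 CPM with scramble and 35.3 and 33.8 CPM with the IRF2BP2 shRNA (log2 fold change 0.13, edgeR adjusted p = 0.187). NBAT1, from the opposite strand of the same region, had 2.25 and 2.83 CPM with scramble and 0.938 and 1.90 CPM with the IRF2BP2 shRNA (log2 fold change -0.83, edgeR adjusted p = 0.0792). Without IRF2BP2 shRNA replicate 2, NBAT1 was called lower (log2 fold change -1.43, edgeR adjusted p = 0.0137). Its log2 fold change was -0.41 when IRF2BP2 shRNA replicate 1 was left out instead (edgeR adjusted p = 0.433). CASC15 and NBAT1 share 227 exon bases on opposite strands. SOX2-OT had 0.375 to 0.716 CPM over the 4 libraries (edgeR adjusted p = 0.313) and SOX9-AS1 0.469 to 0.835 CPM (edgeR adjusted p = 0.583).

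**Figure D4:**
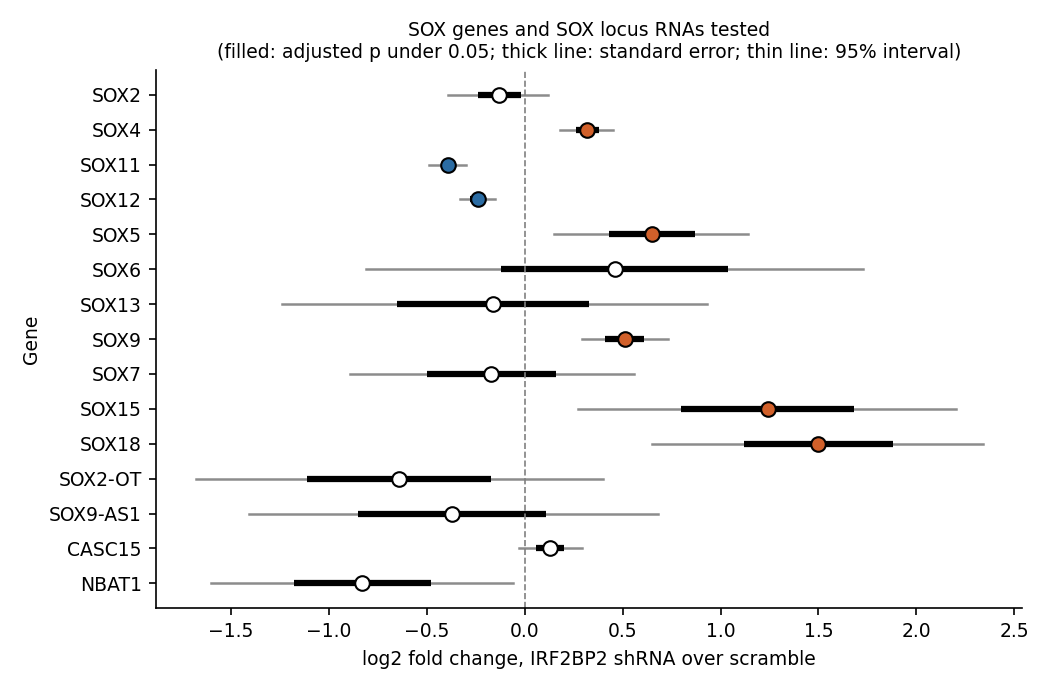
Log2 fold change of IRF2BP2 shRNA over scramble for the 8 tested SOX members, 3 other SOX genes and 4 noncoding RNAs of SOX loci. Filled points had an edgeR adjusted p under 0.05, thick lines are standard errors and thin lines 95% intervals. SOX4, SOX5 and SOX9 lie to the right and SOX11 and SOX12 to the left of 0.

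Genes that go with SOX factors in their lineages were described from lists. Early neuronal genes, which subgroup C factors act with, fell in 7 of 11 cases and rose in 2, and their median log2 fold change was -0.58. Of all genes tested, 21.4% fell and 20.6% rose. DCX, a microtubule protein of migrating neurons, had 65.1 and 63.2 CPM with scramble and 25.7 and 23.7 CPM with the IRF2BP2 shRNA. On the log2 scale CRMP1 fell by 1.03, the RNA-binding protein gene ELAVL3 by 0.83 and the neurofilament gene INA by 0.64 (edgeR adjusted p between 1.43e-08 and 1.57e-07). TEAD2, reported as a target of subgroup C factors, rose by 0.28, and MAP2 by 0.19 (both named after their values were seen).

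Neural progenitor genes, the setting in which SOX2 is best known, had 7 of 13 tested higher and 6 not called, with a median of 0.22. Among the 7, POU3F3 passed the filter on low counts only through the group in which it is high. It had 8 and 6 counts with scramble and 14 and 29 with the IRF2BP2 shRNA (named after its values were seen). Of all genes tested, 20.6% were higher. In the alternative settings that kept all libraries, the count of progenitor genes called higher was 6 or 7. HES1, a Notch effector that holds back neuronal differentiation, had 12.7 CPM in each scramble library and 32.8 and 31.6 CPM with the IRF2BP2 shRNA. The log2 rises were 0.57 for GLI2, 0.56 for VIM and 0.36 for CDH2 (edgeR adjusted p between 1.30e-07 and 2.24e-05). Neural crest regulators had 4 of 7 tested higher and 3 lower, with a median of 0.52. MSX2 rose by 3.06 and SNAI2 by 1.87 on the log2 scale, while ETS1 fell by 1.21 and TFAP2B by 0.84 (edgeR adjusted p at or under 7.85e-08). FOXD3 and ZIC1 had 0 counts in all libraries.

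The lineage genes downstream of subgroup E were sparse. Of 16 Schwann cell and glial genes, 7 passed the filter, of which 2 fell, with a median of -0.30. PMP22, a myelin protein gene also expressed outside glia, had 41.9 and 43.6 CPM with scramble and 26.3 and 23.2 CPM with the IRF2BP2 shRNA (log2 fold change -0.79, edgeR adjusted p = 1.54e-05). NGFR, the neurotrophin receptor of neural crest and Schwann cells, fell by 0.61 (edgeR adjusted p = 0.0133), a call lost without scramble replicate 2 (edgeR adjusted p = 0.121) or IRF2BP2 shRNA replicate 1 (edgeR adjusted p = 0.0686). CDH19, GJB1, MAG and PMP2 had 0 counts in all libraries.

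Of 8 melanocyte genes, 5 were tested and 2 fell, with a median of -0.92. KIT, a receptor tyrosine kinase, had 8.81 and 8.52 CPM with scramble and 2.09 and 1.31 CPM with the IRF2BP2 shRNA (edgeR adjusted p = 1.03e-05). PMEL fell by 1.53 on the log2 scale (edgeR adjusted p = 0.0164), and the call was lost without scramble replicate 1 (edgeR adjusted p = 0.119) or IRF2BP2 shRNA replicate 2 (edgeR adjusted p = 0.108). The melanocyte factor MITF had 5.47 and 5.79, then 7.56 and 7.02 CPM and was not called (edgeR adjusted p = 0.0897; named after its values were seen).

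Cartilage genes, which SOX9 drives with SOX5 and SOX6 in chondrocytes, had 9 of 15 tested, with 2 higher, 1 lower and 6 not called and a median of -0.19. Of those called, COL11A1 and COL2A1 passed the filter on low counts only through the group in which they are high. COL27A1 had 1.35 and 2.18 CPM with scramble and 5.63 and 4.93 CPM with the IRF2BP2 shRNA (log2 fold change 1.58, edgeR adjusted p = 0.000518). COL11A1 had 0 counts in both scramble libraries and 12 and 11 with the IRF2BP2 shRNA. Its mean with the IRF2BP2 shRNA was 3.69-fold above a scramble floor of 3 counts per library. This bound leaves out the counting error of the 12 and 11 counts. COL2A1, the main collagen of cartilage and a classic SOX9 target, had 1.04 and 0.456 CPM with scramble and 0.0625 and 0.125 CPM with the IRF2BP2 shRNA (edgeR adjusted p = 0.00542), and its call was lost without scramble replicate 1 (log2 fold change -2.23 in place of -2.95, edgeR adjusted p = 0.146). The cartilage matrix genes HAPLN1 and CNMD had 0 counts in all libraries.

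Cofactors and modifying enzymes of SOX proteins were all expressed. Among 19 tested, 9 rose and 4 fell, and the median was 0.06. TLE1, a Groucho family corepressor, had 89.6 and 89.0 CPM with scramble and 54.5 and 57.1 CPM with the IRF2BP2 shRNA (log2 fold change -0.68, edgeR adjusted p = 1.08e-06). The log2 rises were 0.50 for WWP2, a ubiquitin ligase that acts on SOX9, 0.39 for the coactivator gene CREBBP and 0.35 for the arginine methyltransferase gene CARM1 (edgeR adjusted p between 1.62e-05 and 4.70e-05). The shares called in these lists stand beside a background of 42.0% of all genes tested. Among genes with a mean of at least 10 CPM, where most cofactors and early neuronal genes lie, the background was 59.1%. None of the lists was tested as a set.

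**Figure D5:**
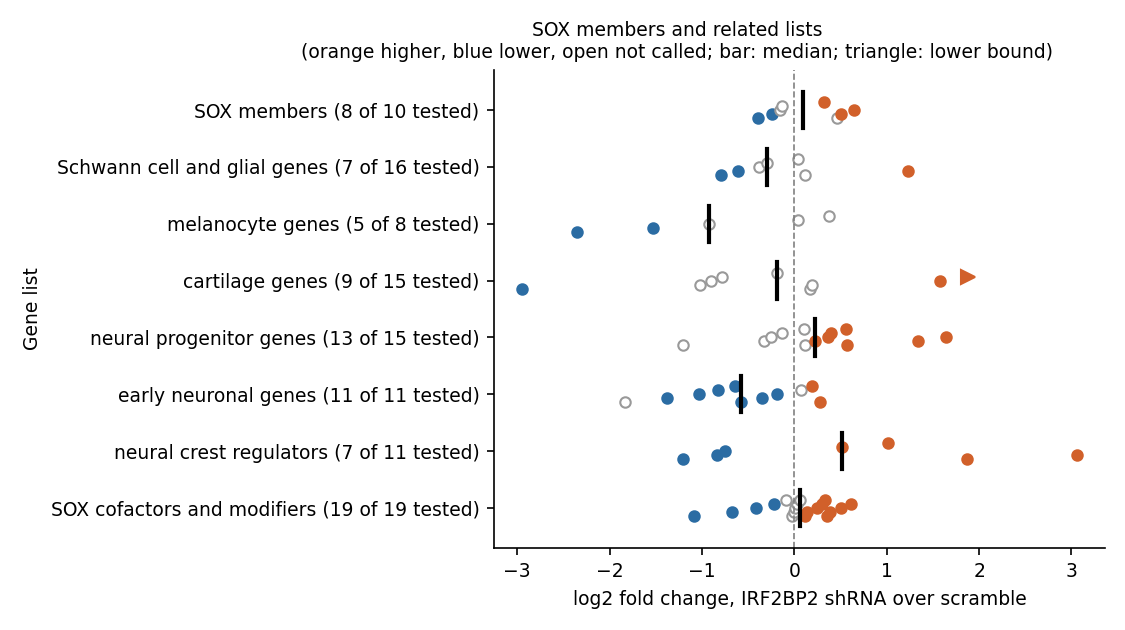
Log2 fold change of IRF2BP2 shRNA over scramble for tested genes of the SOX members and 7 related lists, with 1 point per gene, orange for called higher, blue for called lower and open for not called. Black bars are list medians, from -0.92 for melanocyte genes to 0.52 for neural crest regulators. The triangle is the bound for COL11A1 from the floor of the scramble libraries, without the counting error of the IRF2BP2 shRNA libraries.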

How the data were processed

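The authors deposited raw gene-level read counts, 1 column per library. Alignment used HISAT2 version 2.2.0 and hg38, per the submitters' processing notes; for the counter and annotation, the sources used here give no name. The TruSeq kit does not mark strand. Control columns carry the abbreviation NC and were taken as the scramble libraries. Symbols matched 56105 rows, and exon lengths and coordinates came from GENCODE release 29.

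The main test was edgeR 4.0.16 (R 4.3.3) on the 19093 genes kept by filterByExpr, with TMM scaling, the robust quasi-likelihood F-test (two-sided) and Benjamini-Hochberg adjustment at 0.05. Standard errors divide the size of the log2 fold change by the square root of F, and intervals use the matching t distribution. TPM used the union of exons. The procedure was run on simulated data with few changed genes, unlike these data, in which 42.0% of genes tested were called. Replicates differed beyond sampling noise (chi-square per degree of freedom 7.01 and 5.26). Alternatives were DESeq2 1.42.0, limma 3.58.1 voom, other scalings and filters, a replicate block and leaving out each library.

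Members and lists were chosen with earlier results of these data known. The rule for naming took all members, other SOX genes and SOX locus RNAs tested, opposite-strand partners, and up to 4 called genes per list by p; genes without counts were named after their values were seen. The result for 1 listed gene is not reported here.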

Additional observations from a re-analysis of the deposited data

How the results depend on the processing

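SOX4, SOX9, SOX11 and SOX12 kept direction and call in all 11 alternatives, and SOX2 stayed uncalled in 11, with log2 fold changes between -0.23 and -0.02. SOX5 kept its direction in 10 and its call in 2. Leaving out 1 library, the log2 fold change of SOX6 ranged from -0.03 (without scramble replicate 2) to 1.3 (without scramble replicate 1) around 0.46, and that of SOX13 from -0.99 (without IRF2BP2 shRNA replicate 2) to 0.37 (without IRF2BP2 shRNA replicate 1) around -0.16, so neither has a direction at this depth. The count of SOX genes called higher was 2 or 3 and of those called lower 2, and 0 passed 1.5-fold in any setting that ran that test. Over all genes, 3930 higher and 4086 lower became 3315 and 4615 with upper quartile scaling and 3301 and 3137 by DESeq2. Library pairs with the same replicate number did not deviate together (correlation 0.06 over genes), and the labels give no shared origin; with a replicate block, 3950 genes were higher and 3950 lower, SOX4, SOX9, SOX11 and SOX12 kept their calls, those of SOX5 (edgeR adjusted p = 0.0588) and SOX15 (edgeR adjusted p = 0.0723) were lost, and NBAT1 was called lower (edgeR adjusted p = 0.0496). Leaving out 1 library, the share difference was 8.84 to 10.59 points for SOX4, -8.87 to -7.74 for SOX11, -3.23 to -2.03 for SOX12, 1.29 to 1.57 for SOX9 and -0.53 to -0.22 for SOX2. Genes under about 1 CPM rest on few counts.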
